A study of Homo sapiens with 9 samples.

Results

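DNA repair and damage checkpoint transcripts were followed in LNCaP, an androgen-responsive line derived from human prostate cancer. The set holds 42 genes chosen for their role in repair or checkpoint signalling, each measured by the Affymetrix probe sets annotated to that symbol alone. Of these, 39 genes with 65 probe sets were measured among 11963 genes on the arrays. BRCA2, FANCA and PMS2 are not analysed here. A gene is represented by its brightest probe set, and values are intensities after RMA, in arbitrary linear units.

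The study had 3 groups of 3 arrays marked as biological replicates, and all cells were first kept for 2 days in RPMI with 10% serum stripped of steroids by charcoal. Cells then received 1 nM R1881, a synthetic androgen, with 20 µM gedunin, a limonoid from plants that is known to inhibit HSP90, or 1 nM R1881 with DMSO, or ethanol and DMSO as vehicle. No group received gedunin alone. Protocols give 24 h for every group, while the titles of the R1881-labelled arrays give 6 h, so the time of that group is not settled, and in both comparisons that use it time and treatment cannot be told apart. Nothing in the labels says more about how separate the cultures were, so p-values measure the spread between these arrays.

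The androgen-induced genes go against 2 of the labels. KLK3, which encodes prostate-specific antigen, averaged 7216 ± 384 with gedunin, 1341 ± 104 under the label R1881 and 11839 ± 513 under the label vehicle (mean intensity ± SD over 3 arrays). FKBP5, a co-chaperone gene induced by androgen, averaged 122 ± 16, 45.1 ± 3.15 and 1815 ± 147 in the same order. KLK2 and TMPRSS2 were ordered alike. Groups are therefore called by their labels, and each direction below rests on labels that these genes contradict. Should those labels have been swapped, the sign of the comparison between them would turn, and the comparison of gedunin with the vehicle-labelled arrays would be the one that sets gedunin with androgen against androgen alone.

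All 7 luminal prostate markers measured (KLK3, KLK2, HOXB13, KRT8, KRT18, TMPRSS2 and FOLH1) lay above the highest array median of 54.5 on every array. Their summed intensity ran from 14260 to 15651 on the gedunin arrays, 5453 to 6122 on the R1881-labelled arrays and 28666 to 31099 on the vehicle-labelled arrays. Of 8 markers of fibroblasts, leukocytes and basal cells, 4 stayed below the lowest array median of 52.4 throughout, and the highest value was 199, of COL1A1. Their summed intensity ran from 511 to 529, from 470 to 525 and from 473 to 508 in the same order of groups. KLK3 (1224 to 12290 over the arrays), KLK2 (145 to 3338) and TMPRSS2 (179 to 3298) in the luminal sum are also the androgen-induced genes above. All samples are of the LNCaP line, so the luminal sum is no measure of how many luminal cells a sample held. The arrays hold bulk RNA, and what set the sums was not tested.

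Cells repair DNA through pathways that divide the work by lesion. Homologous recombination and end joining rejoin double-strand breaks, the Fanconi anaemia pathway removes cross-links between strands, mismatch repair corrects replication errors, and nucleotide and base excision repair replace damaged bases. The kinases ATM and ATR report damage to CHEK1 and CHEK2, which hold the cell cycle. Many of these genes are transcribed with S phase, and androgen receptor activity has been linked to repair gene expression in prostate cancer cells.

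**Figure D1:**
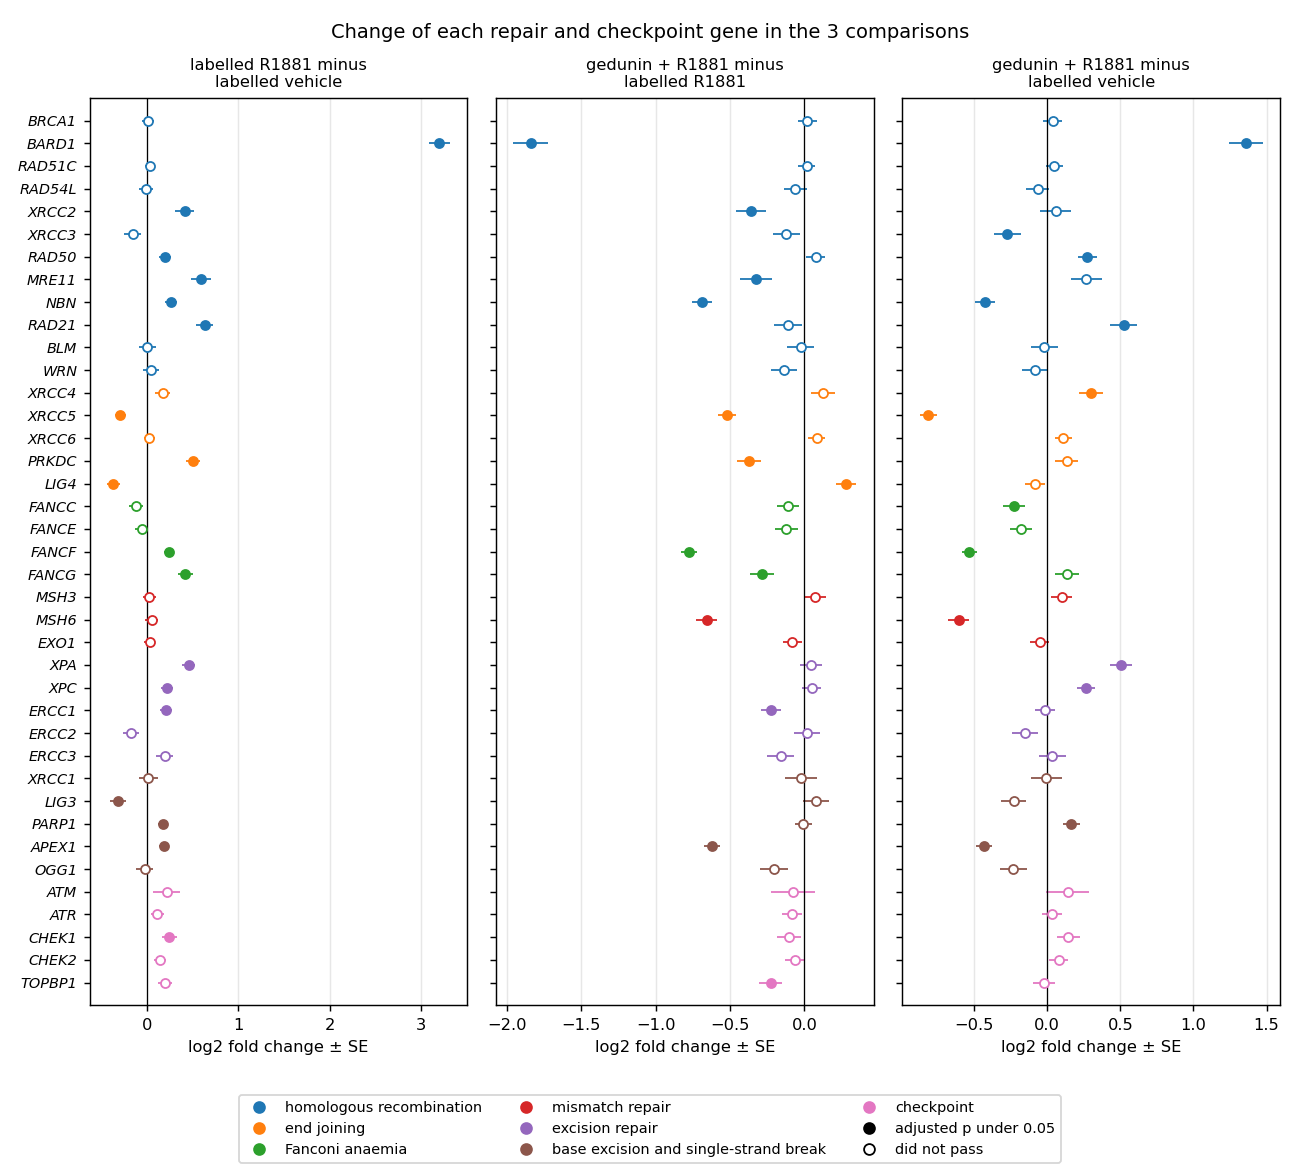
Log2 fold change ± SE of each of the 39 measured genes (rows, coloured by role) in the 3 comparisons, with filled points where the adjusted p was under 0.05; the horizontal scales of the panels differ. BARD1 lies at 3.20, -1.84 and 1.36, outside the range of the other genes in each panel.

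Between the R1881-labelled arrays and labelled vehicle, 15 of 39 repair genes were higher and 3 were lower by limma with Benjamini-Hochberg adjustment over all genes at 0.05. With 18 of 39 called, where 30.3% of all genes were, that is 38.5% higher and 7.69% lower, where all genes gave 16.7% higher and 13.6% lower. The median log2 fold change of the 39 genes was 0.14, against 0.00 over all genes. At 1.5-fold or more, 3 of 39 genes (7.69%) were called, near the 8.46% of all genes. BARD1, MRE11 and RAD21 are these 3 genes.

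Gedunin arrays set against the R1881-labelled arrays gave the other balance, with 1 gene higher (2.56%, all genes 14.0%) and 12 lower (30.8%, all genes 13.4%), 13 in all where 27.4% of all genes were called. The median was -0.10, against -0.01 over all genes. At 1.5-fold or more, 5 genes were called (12.8%, all genes 7.15% in either direction), BARD1, NBN, FANCF, MSH6 and APEX1. All 5 were lower, as were 341 of the 11963 genes at that size. Set against the vehicle-labelled arrays, the gedunin arrays were higher in 7 genes (17.9%, all genes 15.0%) and lower in 7 (17.9%, all genes 11.9%), 14 in all where 26.9% of all genes were called. The median there was 0.03, against -0.01 over all genes. At least 1.5-fold were 3 genes (7.69%, all genes 7.02%), BARD1 higher and XRCC5 and MSH6 lower. The comparisons share arrays, and 16 of the 39 genes were called in none of them.

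Ranked by array, 10 of 39 genes (25.6%) had all 3 R1881-labelled arrays above the other 6, which 12.0% of all genes had. They were BARD1, XRCC2, MRE11, NBN, PRKDC, FANCF, FANCG, ERCC1, APEX1 and TOPBP1. NBN, XRCC5, FANCF, MSH6 and APEX1 had all 3 gedunin arrays below the other 6, which is 5 of 39 (12.8%) where all genes gave 7.87%. None of the 39 genes had all 3 gedunin arrays above the other 6, a pattern of 9.73% of all genes. BARD1, RAD50, RAD21, XRCC4, FANCG, XPA, XPC, PARP1 and CHEK1 had the vehicle-labelled arrays below the other 6 (23.1%, all genes 11.0%). The reverse patterns had 1 gene each, LIG4 with the R1881-labelled arrays below the other 6 (2.56%, all genes 9.98%) and XRCC5 with vehicle-labelled arrays above them (2.56%, all genes 9.84%).

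Promoter sequences are shown for the 3 called genes with the largest change for which the RefSeq promoter table (GRCh38.p14, 250 bases before to 50 after the gene start) holds an entry, because they carry the largest falls and the largest rise among those genes. BARD1 lies on the minus strand at chr2:214809634-214809933, FANCF on the minus strand at chr11:22625774-22626073 and MSH6 on the plus strand at chr2:47782895-47783194. All are written in the direction of transcription, with matches to the searched motifs in capitals.
BARD1: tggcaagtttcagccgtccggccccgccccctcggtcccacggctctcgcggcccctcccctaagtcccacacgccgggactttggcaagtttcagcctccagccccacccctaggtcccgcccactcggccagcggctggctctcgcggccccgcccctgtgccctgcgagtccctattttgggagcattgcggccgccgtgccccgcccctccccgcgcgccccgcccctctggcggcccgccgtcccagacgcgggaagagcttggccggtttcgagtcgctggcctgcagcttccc
FANCF: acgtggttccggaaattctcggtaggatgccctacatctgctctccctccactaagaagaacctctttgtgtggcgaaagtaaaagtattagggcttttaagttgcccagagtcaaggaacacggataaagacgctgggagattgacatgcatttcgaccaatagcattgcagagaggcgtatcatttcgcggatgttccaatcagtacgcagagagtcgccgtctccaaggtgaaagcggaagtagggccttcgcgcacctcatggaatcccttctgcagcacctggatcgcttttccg
MSH6: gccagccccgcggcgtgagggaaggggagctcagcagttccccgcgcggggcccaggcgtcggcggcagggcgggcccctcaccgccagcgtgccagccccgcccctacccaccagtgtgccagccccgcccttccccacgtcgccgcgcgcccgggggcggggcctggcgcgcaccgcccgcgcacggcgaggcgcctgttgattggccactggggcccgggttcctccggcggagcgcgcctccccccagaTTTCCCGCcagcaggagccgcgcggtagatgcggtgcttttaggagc
The motifs searched on both strands were TTTCCCGC and TTTGGCGC, spellings of the site of E2F factors that drive S-phase genes, and a full androgen response element. The E2F spellings cannot match at the same place, and a match on one strand may overlap one on the other. The windows of BARD1 and FANCF hold none of these letters, and that of MSH6 holds TTTCCCGC just past the start. Of 34 repair genes with a window, 4 held TTTCCCGC (FANCC, MSH6, XPC and XRCC2), which 1.66% of all 27305 windows hold, and 2 held TTTGGCGC (MSH3 and XRCC6), which 0.659% hold. The androgen response element was in 0 of the 34 and in 1 of all windows. Against the R1881-labelled arrays, the 6 genes with an E2F spelling had log2 fold changes on the gedunin arrays of -0.66 for MSH6, -0.36 for XRCC2, -0.11 for FANCC, 0.05 for XPC, 0.07 for MSH3 and 0.08 for XRCC6, of which MSH6 and XRCC2 passed. Against the vehicle-labelled arrays, MSH6 (-0.61) and FANCC (-0.23) were called lower and XPC (0.27) higher. XRCC2 (0.06), MSH3 (0.10) and XRCC6 (0.11) did not pass there. The XRCC2 and FANCC calls were lost without some single arrays, as given below. NBN, RAD21, WRN, XRCC5 and PRKDC had no window in the table.

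**Figure D2:**
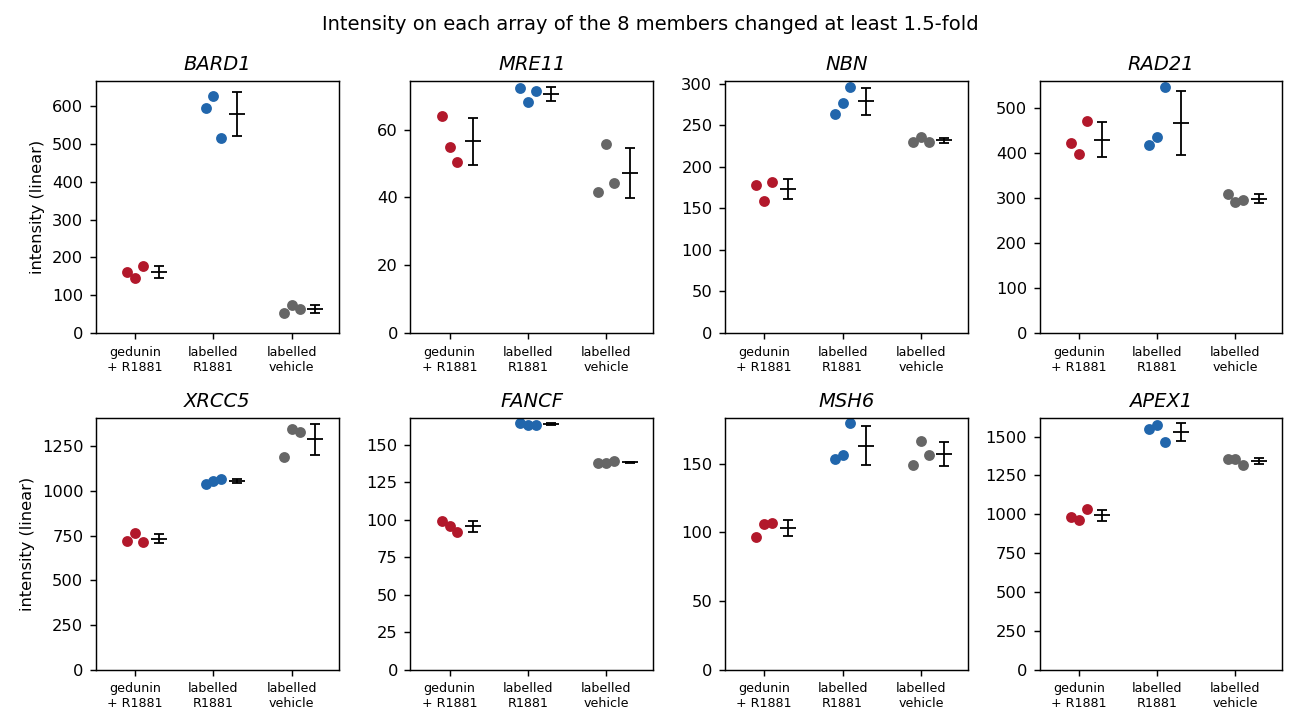
Intensity (linear axis from 0) on each array of the 8 genes that changed at least 1.5-fold with non-overlapping groups, as points for gedunin plus R1881, labelled R1881 and labelled vehicle from left to right, with mean ± SD as a bar beside them (n = 3). BARD1 spans 52.5 to 628, while FANCF, APEX1, NBN, XRCC5 and MSH6 are lowest on the gedunin arrays.

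Among the recombination genes, BARD1 moved most. It encodes the RING-domain partner of BRCA1, and the heterodimer is a ubiquitin ligase that acts at breaks and stalled forks. BARD1 measured 162, 146 and 177 on the gedunin arrays, 595, 628 and 515 on the R1881-labelled arrays, and 52.5, 74.7 and 63.5 on the vehicle-labelled arrays. The 3 groups did not overlap, with the R1881-labelled arrays highest and the gedunin arrays in between. Its log2 fold change was 3.20 ± 0.12 (SE, adjusted p = 2.84e-10) for labelled R1881 over labelled vehicle, 9.18-fold. Gedunin arrays were 3.58-fold below the R1881-labelled arrays (-1.84 ± 0.12, adjusted p = 7.34e-08) and 2.56-fold above the vehicle-labelled arrays (1.36 ± 0.12, adjusted p = 1.41e-06). BARD1 has a single probe set here, and its mean of 63.6 on the vehicle-labelled arrays lay close to the array medians, so the folds against that group are approximate.

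BRCA1 averaged 71.5 ± 3.21 on the gedunin arrays, 70.6 ± 5.69 on the R1881-labelled arrays and 69.7 ± 1.2 on the vehicle-labelled arrays, and passed in no comparison (log2 fold change 0.016 ± 0.066 for labelled R1881 over labelled vehicle). Its brightest probe set has the suffix that marks probes able to match other transcripts. The other BRCA1 probe set averaged between 19.4 and 21.2 per group, far under the array medians, and did not pass either.

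MRE11, RAD50 and NBN encode the complex that senses and trims broken ends. NBN, its regulatory subunit, measured 178, 159 and 181 on the gedunin arrays, 263, 276 and 296 on the R1881-labelled arrays, and 230, 236 and 230 on the vehicle-labelled arrays. Every gedunin array was below the other 6. NBN fell by 0.69 ± 0.07 on the log2 scale against the R1881-labelled arrays (1.61-fold lower, adjusted p = 3.22e-06) and by 0.43 ± 0.07 against the vehicle-labelled arrays (adjusted p = 0.000247), and the R1881-labelled arrays were above vehicle-labelled arrays by 0.26 ± 0.07 (adjusted p = 0.0075). All 4 NBN probe sets were lower on the gedunin arrays in both comparisons, with log2 fold changes of -0.69, -0.92, -0.94 and -0.81 against the R1881-labelled arrays and -0.43, -0.37, -0.70 and -0.51 against the vehicle-labelled arrays. Of these 4, the brightest, which gave the array values, is of the kind that can match other transcripts. The second brightest had 3 equal deposited values on the vehicle-labelled arrays.

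MRE11, the nuclease subunit, measured 64.2, 54.9 and 50.5 on the gedunin arrays, 72.2, 68.2 and 71.3 on the R1881-labelled arrays, and 41.7, 55.6 and 44.1 on the vehicle-labelled arrays. The R1881-labelled arrays were the highest 3, and the gedunin arrays overlapped vehicle-labelled arrays. MRE11 was 1.51-fold higher on the R1881-labelled arrays than on vehicle-labelled arrays (0.59 ± 0.11, adjusted p = 0.0007), an approximate fold since the lower mean of 47.2 lay under the lowest array median. The second MRE11 probe set did not pass there (-0.015 ± 0.085, adjusted p = 0.926). Its group means of 14.6 to 15.5 lay far under the array medians. On the brightest MRE11 probe set, the gedunin arrays were below the R1881-labelled arrays (-0.33 ± 0.11, adjusted p = 0.035). There the second probe set did not pass (-0.067 ± 0.085, adjusted p = 0.668). Without gedunin array 2 or 3 or any single R1881-labelled array, that fall no longer passed (adjusted p between 0.0582 and 0.156). Nor did it pass as a mean over both probe sets (-0.20, adjusted p = 0.141). RAD50, the ATPase subunit, was higher than on the vehicle-labelled arrays by 0.27 ± 0.07 on the gedunin arrays (adjusted p = 0.00696) and by 0.20 ± 0.07 on the R1881-labelled arrays (adjusted p = 0.0384). As a mean over its probe sets the first was 0.083 (adjusted p = 0.352) and the second 0.14 (adjusted p = 0.0964), and neither passed. The second was also lost under quantile normalization (0.17, adjusted p = 0.0637). Nor did the second pass without gedunin array 2, vehicle-labelled array 1 or 3 or any single R1881-labelled array (adjusted p between 0.052 and 0.134).

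RAD21, the kleisin subunit of cohesin that holds sister chromatids for repair, measured 422, 397 and 473 on the gedunin arrays, 418, 435 and 548 on the R1881-labelled arrays, and 310, 293 and 295 on the vehicle-labelled arrays. Gedunin arrays and R1881-labelled arrays overlapped, and both groups were above the vehicle-labelled arrays. The rise over labelled vehicle was 0.52 ± 0.10 on the gedunin arrays (adjusted p = 0.000962) and 0.63 ± 0.10 on the R1881-labelled arrays (1.55-fold, adjusted p = 0.000179), and the second probe set gave 0.21 and 0.27.

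XRCC2, which acts in homologous recombination, averaged 137 ± 5.91 on the gedunin arrays, 177 ± 28.6 on the R1881-labelled arrays and 132 ± 10.7 on the vehicle-labelled arrays. It was higher on the R1881-labelled arrays than on vehicle-labelled arrays (0.42 ± 0.10, adjusted p = 0.00761) and lower on the gedunin arrays than on the R1881-labelled arrays (-0.36 ± 0.10, adjusted p = 0.0196), the fall being lost without gedunin array 2 or 3 or R1881-labelled array 1 or 3 (adjusted p between 0.0512 and 0.0841), and its only probe set is of the kind that can match other transcripts. XRCC3, another recombination gene, was lower on the gedunin arrays than on the vehicle-labelled arrays (-0.27 ± 0.09, adjusted p = 0.0448), at means under the lowest array median in both the gedunin arrays and R1881-labelled arrays. That call was lost without gedunin array 2 or 3, vehicle-labelled array 2 or 3 or R1881-labelled array 1 (adjusted p between 0.0578 and 0.18). With a pseudocount of 16 the XRCC3 call was lost too (adjusted p = 0.0544). RAD54L, a DNA translocase, and the helicase genes BLM and WRN passed in no comparison, nor did RAD51C on its brightest probe set. RAD54L (group means of 61.0 to 63.9) and BLM (59.2 to 60.2) have 1 probe set each and lay close to the array medians. A second RAD51C probe set of similar brightness was higher than on the vehicle-labelled arrays by 0.47 ± 0.10 on the gedunin arrays (adjusted p = 0.00236) and by 0.31 ± 0.10 on the R1881-labelled arrays (adjusted p = 0.0285). In all, 12 recombination genes were measured, of which 6 were higher and 0 lower on the R1881-labelled arrays than on vehicle-labelled arrays, 0 higher and 4 lower between gedunin and labelled R1881, and 3 higher and 2 lower between gedunin and labelled vehicle. These are 50% and 0% (all genes 16.7% and 13.6%), 0% and 33.3% (all genes 14.0% and 13.4%), and 25% and 16.7% (all genes 15.0% and 11.9%). In the first comparison, 1 of 5 end joining genes was higher and 2 lower. Of 4 Fanconi anaemia genes 2 were higher and 0 lower, of 3 mismatch repair genes 0 and 0, and of 5 base excision genes 2 and 1. In the second comparison these pairs were 1 and 2, 0 and 2, 0 and 1, and 0 and 1. In the third they were 1 and 1, 0 and 2, 0 and 1, and 1 and 1.

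Of the end joining genes, XRCC5 encodes Ku80 and XRCC6 Ku70, the ring that loads on broken ends. XRCC5 measured 722, 763 and 715 on the gedunin arrays, 1041, 1054 and 1065 on the R1881-labelled arrays, and 1191, 1347 and 1332 on the vehicle-labelled arrays. The groups did not overlap and the gedunin arrays were lowest. XRCC5 was 1.76-fold lower on the gedunin arrays than on vehicle-labelled arrays (-0.81 ± 0.06, adjusted p = 3.88e-07) and 1.44-fold lower than on R1881-labelled arrays (-0.52 ± 0.06, adjusted p = 2.05e-05). Its second probe set gave -0.54 and -0.43. The R1881-labelled arrays were also below vehicle-labelled arrays (-0.29 ± 0.06, adjusted p = 0.00241), where the second probe set did not pass. XRCC6 averaged 2185 ± 83.0 on the gedunin arrays, 2065 ± 80.9 on the R1881-labelled arrays and 2026 ± 66.5 on the vehicle-labelled arrays, and passed in no comparison. The difference between the changes of the 2 Ku genes was not tested.

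PRKDC, the catalytic subunit of the DNA-dependent protein kinase that Ku recruits, averaged 227 ± 13.2 on the gedunin arrays, 294 ± 17 on the R1881-labelled arrays and 208 ± 22.1 on the vehicle-labelled arrays. It was lower on the gedunin arrays than on R1881-labelled arrays (-0.37 ± 0.08, adjusted p = 0.0031), and higher on the R1881-labelled arrays than on vehicle-labelled arrays (0.50 ± 0.08, adjusted p = 0.000283). LIG4, the ligase that seals the ends, ran the other way. Of the brightest probe sets of the 39 genes, that of LIG4 alone was called higher with gedunin than on the R1881-labelled arrays (0.28 ± 0.07, adjusted p = 0.00738), and it was lower on the R1881-labelled arrays than on vehicle-labelled arrays (-0.37 ± 0.07, adjusted p = 0.00107). Its mean of 51.2 on the R1881-labelled arrays lay under the lowest array median. XRCC4, the partner of LIG4, averaged under 30 in every group and was higher on the gedunin arrays than on vehicle-labelled arrays (0.30 ± 0.08, adjusted p = 0.0154) on a probe set that can match other transcripts. That call was lost without gedunin array 1 (adjusted p = 0.0577) or vehicle-labelled array 3 (adjusted p = 0.0707), and the brightest XRCC4 probe set not of that kind was at -0.076 (adjusted p = 0.437). The other 2 XRCC4 probe sets were called higher with gedunin than on vehicle-labelled arrays, at 0.38 ± 0.07 (adjusted p = 0.000671) and 0.45 ± 0.06 (adjusted p = 5.85e-05). The second of these was also above the R1881-labelled arrays (0.21 ± 0.06, adjusted p = 0.0166), and all 4 averaged far under the array medians.

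FANCF, an adaptor of the Fanconi anaemia core complex, measured 99.0, 96.2 and 91.6 on the gedunin arrays, 164.5, 163.6 and 163.6 on the R1881-labelled arrays, and 138.2, 138.0 and 138.9 on the vehicle-labelled arrays. The gedunin arrays were lowest and no groups overlapped. FANCF was 1.71-fold lower on the gedunin arrays than on R1881-labelled arrays (-0.78 ± 0.05, adjusted p = 1.18e-07) and 1.45-fold lower than on vehicle-labelled arrays (-0.53 ± 0.05, adjusted p = 4.49e-06). The R1881-labelled arrays were above vehicle-labelled arrays by 0.24 ± 0.05 (adjusted p = 0.00264). FANCG, a core complex subunit, was lower on the gedunin arrays than on R1881-labelled arrays (-0.28 ± 0.08, adjusted p = 0.0204) and higher on the R1881-labelled arrays than on vehicle-labelled arrays (0.42 ± 0.08, adjusted p = 0.00149). The first call was lost without gedunin array 2 (adjusted p = 0.0736) or R1881-labelled array 3 (-0.18, adjusted p = 0.0539). FANCC was lower on the gedunin arrays than on vehicle-labelled arrays (-0.23 ± 0.08, adjusted p = 0.0386), but not when any single gedunin array or vehicle-labelled array 1 or 2 was left out (adjusted p between 0.0641 and 0.136). FANCE, a core complex subunit as well, passed in no comparison.

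MSH6, which recognises mismatches, measured 96.5, 106 and 107 on the gedunin arrays, 154, 157 and 179 on the R1881-labelled arrays, and 149, 167 and 156 on the vehicle-labelled arrays. The gedunin arrays were below the other 6, which overlapped. MSH6 was 1.58-fold lower on the gedunin arrays than on R1881-labelled arrays (-0.66 ± 0.07, adjusted p = 1.42e-05) and 1.52-fold lower than on vehicle-labelled arrays (-0.61 ± 0.07, adjusted p = 3.24e-05). A second probe set gave -0.36 and -0.56, while the third lay far under the array medians. MSH3, another mismatch recognition gene, and EXO1, the exonuclease that removes the mismatched strand, passed in no comparison. EXO1 has 1 probe set, with group means of 56.4 to 59.7, close to the array medians.

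In base excision and single-strand break repair, APEX1 encodes the endonuclease that cuts at abasic sites. APEX1 measured 982, 966 and 1033 on the gedunin arrays, 1552, 1576 and 1463 on the R1881-labelled arrays, and 1358, 1353 and 1318 on the vehicle-labelled arrays. No groups overlapped, and the gedunin arrays were lowest. It was 1.54-fold lower on the gedunin arrays than on R1881-labelled arrays (-0.62 ± 0.06, adjusted p = 1.67e-06) and 1.35-fold lower than on vehicle-labelled arrays (-0.44 ± 0.06, adjusted p = 4.55e-05). The rise on the R1881-labelled arrays over vehicle-labelled arrays (0.19 ± 0.06, adjusted p = 0.0198) was lost without vehicle-labelled array 3 or R1881-labelled array 1 or 2 (adjusted p between 0.0603 and 0.0709). PARP1, the sensor of strand breaks, averaged 347 ± 11.3 on the gedunin arrays, 349 ± 12.3 on the R1881-labelled arrays and 310 ± 10.6 on the vehicle-labelled arrays. Its rise over labelled vehicle was 0.17 ± 0.06 in each (adjusted p = 0.0444 for gedunin and 0.0326 for labelled R1881). The gedunin call was lost without gedunin array 1 or 3, any single vehicle-labelled array or R1881-labelled array 2 (adjusted p between 0.053 and 0.158). The other was lost without vehicle-labelled array 1 or 3 or R1881-labelled array 2 or 3 (adjusted p between 0.0551 and 0.123). With only the 2 groups compared, that other call did not pass either (adjusted p = 0.0516). LIG3, a ligase that works with XRCC1, was lower on the R1881-labelled arrays than on vehicle-labelled arrays (-0.31 ± 0.09, adjusted p = 0.016), but not without vehicle-labelled array 2 (adjusted p = 0.0721) or R1881-labelled array 3 (adjusted p = 0.064). The second LIG3 probe set was lower there too (-0.29 ± 0.07, adjusted p = 0.00963) and was also lower on the gedunin arrays than on vehicle-labelled arrays (-0.26 ± 0.07, adjusted p = 0.0188), where the brightest did not pass (-0.23 ± 0.09, adjusted p = 0.0739) and the mean over both did (-0.25, adjusted p = 0.0234). XRCC1 and OGG1, the 8-oxoguanine glycosylase gene, averaged under the lowest array median in every group and passed in no comparison.

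Of 5 nucleotide excision repair genes, 3 were higher and 0 lower between labelled R1881 and labelled vehicle (all genes 16.7% and 13.6%). Between gedunin and labelled R1881, 0 were higher and 1 lower (all genes 14.0% and 13.4%), and between gedunin and labelled vehicle 2 were higher and 0 lower (all genes 15.0% and 11.9%). XPA, which verifies the lesion, averaged 115 ± 10.1 on the gedunin arrays, 111 ± 7.10 on the R1881-labelled arrays and 80.9 ± 2.95 on the vehicle-labelled arrays. The rise over labelled vehicle was 0.50 ± 0.07 on the gedunin arrays (adjusted p = 0.000145) and 0.46 ± 0.07 on the R1881-labelled arrays (adjusted p = 0.000286). XPC, which finds the lesion, rose by 0.27 ± 0.06 (adjusted p = 0.00706) and 0.22 ± 0.06 (adjusted p = 0.0208) in the same order, the second not without vehicle-labelled array 2 or R1881-labelled array 1 or 2 (adjusted p between 0.0592 and 0.0746). ERCC1, a subunit of the nuclease that cuts on the far side of the lesion, was lower on the gedunin arrays than on R1881-labelled arrays (-0.23 ± 0.07, adjusted p = 0.0214), though not without gedunin array 1 or 2 or R1881-labelled array 1 (adjusted p between 0.0737 and 0.0953), and its second probe set gave -0.074 ± 0.050 and did not pass. The R1881-labelled arrays were above vehicle-labelled arrays (0.21 ± 0.07, adjusted p = 0.0278), but not without vehicle-labelled array 2 or 3 or R1881-labelled array 1 (adjusted p between 0.0792 and 0.0888). There the second probe set also passed (0.22 ± 0.05, adjusted p = 0.00457), and it was called higher with gedunin than on vehicle-labelled arrays (0.15 ± 0.05, adjusted p = 0.0487). ERCC2 and ERCC3, the helicases of TFIIH, passed in no comparison.

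Of 5 checkpoint genes, 1 was called higher between labelled R1881 and labelled vehicle (20%, all genes 16.7%) and 1 lower between gedunin and labelled R1881 (20%, all genes 13.4%), shares near those of all genes. Between gedunin and labelled vehicle 0 were called, where 26.9% of all genes were. ATR averaged 134 ± 5.43 on the gedunin arrays, 142 ± 4.98 on the R1881-labelled arrays and 132 ± 11.6 on the vehicle-labelled arrays, and passed in no comparison. CHEK2 also passed in none. CHEK1 was called higher on the R1881-labelled arrays than on vehicle-labelled arrays (0.25 ± 0.08, adjusted p = 0.0348), at means of 22.2 and 18.6 that lie far below the array medians. The call was lost when any single vehicle-labelled array or R1881-labelled array 3 was left out (adjusted p between 0.0717 and 0.129). Without the last, the change was 0.16 in place of 0.25. The CHEK1 call was also lost with a pseudocount of 16 (adjusted p = 0.0679) and under quantile normalization (adjusted p = 0.0652). TOPBP1, the activator of ATR, was lower on the gedunin arrays than on R1881-labelled arrays (-0.23 ± 0.08, adjusted p = 0.0413), but not without gedunin array 1 or 3, vehicle-labelled array 1 or 3 or R1881-labelled array 2 or 3 (adjusted p between 0.0545 and 0.185). Under quantile normalization (adjusted p = 0.0659) and with only the 2 groups compared (adjusted p = 0.0707) the TOPBP1 call was lost too. The brightest ATM probe set, which can match other transcripts, varied between 76.9 and 135 over the arrays and passed in no comparison. A dimmer ATM probe set averaged 36.6 ± 1.44 on the gedunin arrays, 48.0 ± 5.73 on the R1881-labelled arrays and 38.8 ± 1.48 on the vehicle-labelled arrays, and was called lower on the gedunin arrays than on R1881-labelled arrays (-0.39 ± 0.08, adjusted p = 0.00225) and higher on the R1881-labelled arrays than on vehicle-labelled arrays (0.30 ± 0.08, adjusted p = 0.0104). Its 3 means lie under the lowest array median, so these folds are approximate.

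**Figure D3:**
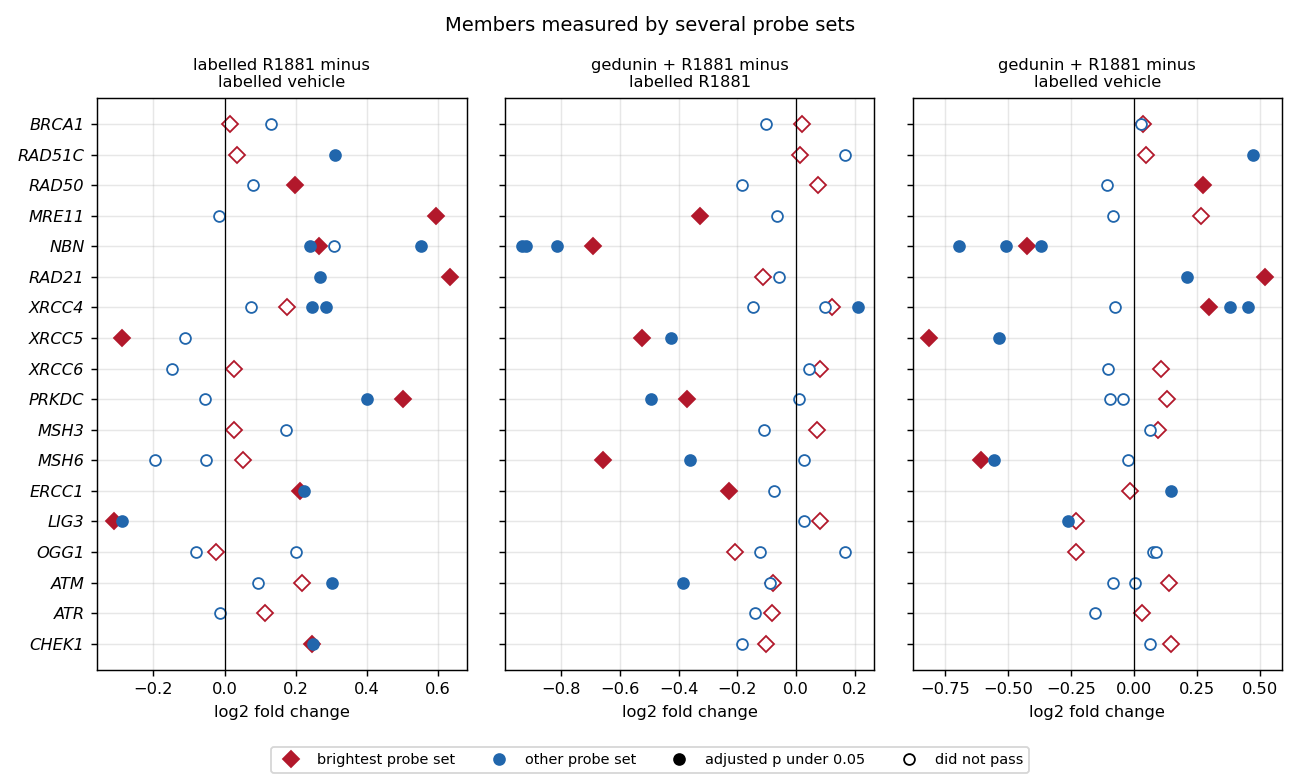
Log2 fold change of every probe set of the 18 genes measured by several, with the brightest as a diamond and filled symbols where the adjusted p was under 0.05. The 4 NBN probe sets lie left of 0 in both comparisons with gedunin, and no gene has filled symbols on both sides of 0 in a panel.

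Of the 18 genes with several probe sets, 0 had probe sets called in opposite directions in any comparison. In the comparison of labelled R1881 with labelled vehicle, 4 were called on all their probe sets, 8 on some and 6 on none. For gedunin against labelled R1881 these were 2, 6 and 10, and for gedunin against labelled vehicle 3, 6 and 9. Of the 39 genes, 9 had a mean over all arrays under the lowest array median, so that a change in them could not be measured well: XRCC3, WRN, XRCC4, FANCE, MSH3, ERCC2, XRCC1, OGG1 and CHEK1.

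Other repair genes were listed by pathway, and their difference from the 39 was not tested. Of 85 other repair genes measured, 31 were higher and 9 lower on the R1881-labelled arrays than on vehicle-labelled arrays (36.5% and 10.6%, all genes 16.7% and 13.6%, median 0.09). On the gedunin arrays 12 were higher and 13 lower than on the R1881-labelled arrays (14.1% and 15.3%, median 0.00), shares near the 14.0% and 13.4% of all genes. Against vehicle-labelled arrays, 28 were higher and 11 lower with gedunin (32.9% and 12.9%, all genes 15.0% and 11.9%, median 0.08).

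Against labelled R1881, UNG, the uracil glycosylase gene, had the largest fall of these 85 genes on the gedunin arrays, by 1.17 ± 0.08 on the log2 scale (adjusted p = 2.41e-07). It also fell by 0.63 ± 0.08 against labelled vehicle (adjusted p = 7.91e-05). UNG averaged 37.3 ± 3.08 on the gedunin arrays, 84.1 ± 10.1 on the R1881-labelled arrays and 57.5 ± 1.76 on the vehicle-labelled arrays, so its folds are approximate. TDP1, which clears stalled topoisomerase I, fell by 0.78 ± 0.07 against labelled R1881 (adjusted p = 1.08e-06), and HLTF, a fork remodeller, by 0.77 ± 0.07 (adjusted p = 2.71e-06). TIPIN, a fork protection factor, was at -0.69 there, SMC5 at -0.53, PMS1 at -0.41, STAG2 at -0.37, BRCC3 at -0.35, TIMELESS at -0.35 and FAN1 at -0.31. The TIMELESS call was lost without gedunin array 1 (-0.29, adjusted p = 0.0733). Those higher with gedunin than on the R1881-labelled arrays included APTX, the aprataxin gene (0.58 ± 0.07, adjusted p = 3.26e-05), UBE2B (0.53), SEM1 (0.51), MPG (0.48), MNAT1 (0.33) and CETN2 (0.33).

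Against the vehicle-labelled arrays, H2AX, the histone variant phosphorylated at breaks, was higher by 0.85 ± 0.09 on the gedunin arrays (adjusted p = 1.09e-05) and by 0.82 ± 0.09 on the R1881-labelled arrays (adjusted p = 1.21e-05). APTX (0.71), RMI1 (0.68), GTF2H1 (0.64), REV3L (0.58), CDC25B (0.54), USP1 (0.52) and TDP2 (0.50) were also higher on the gedunin arrays, and RAD54B (-0.72), CDC25A (-0.51), PMS1 (-0.43) and UBE2N (-0.31) were lower. Without probe sets that can match other transcripts UBE2N was at -0.17 (adjusted p = 0.13), and as a mean over its probe sets the H2AX change on the R1881-labelled arrays was 0.19 (adjusted p = 0.0524). On the R1881-labelled arrays, HLTF (0.96), RAD51AP1 (0.81), REV3L (0.77), SMC5 (0.73), TIPIN (0.73), FANCI (0.73), TDP1 (0.72), USP1 (0.59), UNG (0.54) and CCNH (0.48) were higher than on vehicle-labelled arrays. RAD54B fell by 1.05 ± 0.11 there (adjusted p = 1.01e-05), HUS1 by 0.59, DDB1 by 0.38, UBE2N by 0.38 and MPG by 0.35. RAD54B averaged under 52.4 on the gedunin arrays and on R1881-labelled arrays, and RAD51AP1 on the gedunin arrays and on vehicle-labelled arrays, so their folds are approximate, as are those of REV3L and CDC25A, whose lower groups lay under 52.4.

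**Figure D4:**
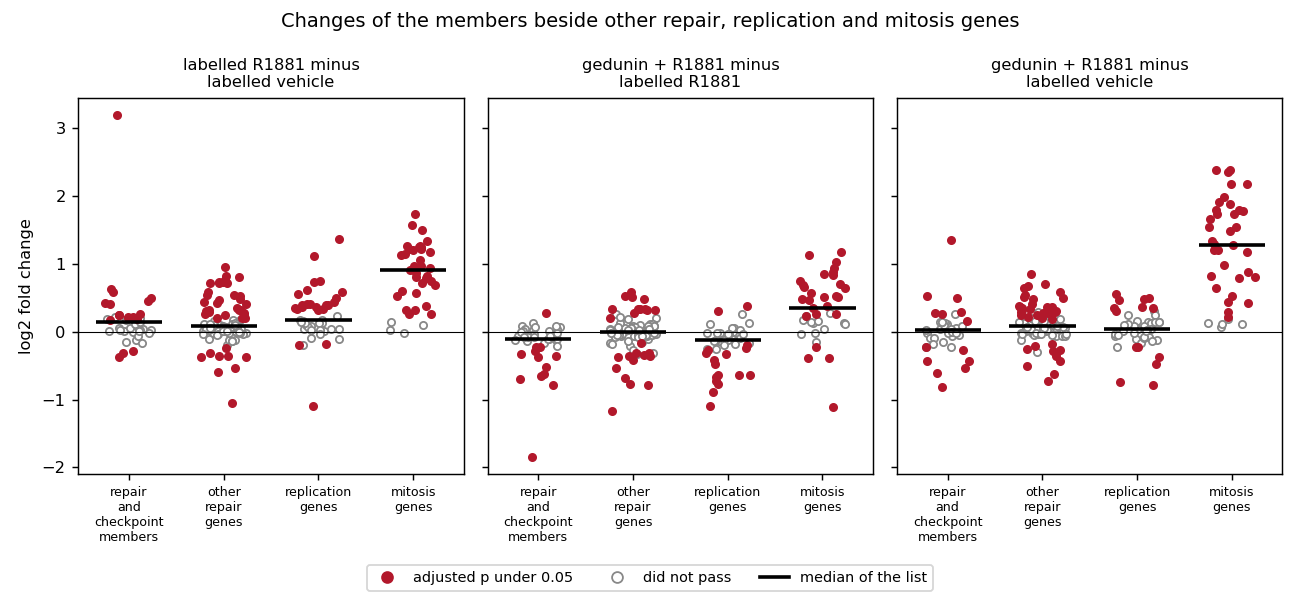
Log2 fold change of each gene of 4 lists (39 repair and checkpoint genes, 85 other repair genes, 44 replication genes and 39 mitosis genes) in the 3 comparisons, with filled points where the adjusted p was under 0.05 and a bar at the median. Mitosis genes have medians of 0.92, 0.34 and 1.28, while those of the repair and checkpoint genes are 0.14, -0.10 and 0.03.

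Lists of replication and mitosis genes are given beside the repair genes. Replication genes had medians of 0.17, -0.13 and 0.04 in the 3 comparisons (labelled R1881 over labelled vehicle, gedunin over labelled R1881, gedunin over labelled vehicle), with 20, 2 and 8 of 44 genes higher (45.5%, 4.55% and 18.2%) and 3, 15 and 6 lower (6.82%, 34.1% and 13.6%). Mitosis genes had medians of 0.92, 0.34 and 1.28, with 35, 23 and 34 of 39 higher (89.7%, 59% and 87.2%) and 0, 4 and 0 lower. Over all genes, 16.7%, 14.0% and 15.0% were higher and 13.6%, 13.4% and 11.9% lower, so the replication shares between gedunin and labelled vehicle are near those of all genes. The mean log2 value of the 44 replication genes lay between 6.59 and 6.66 on the gedunin arrays, between 6.81 and 6.84 on the R1881-labelled arrays and between 6.53 and 6.62 on the vehicle-labelled arrays. That of the mitosis genes lay between 7.43 and 7.48, between 7.07 and 7.12 and between 6.19 and 6.34, and that of the 39 repair genes between 6.66 and 6.72, between 6.87 and 6.90 and between 6.66 and 6.71 in the same order of groups. The repair and replication means were highest on the R1881-labelled arrays, and the mitosis mean was highest on the gedunin arrays. The part of the cell cycle in the repair gene values was not tested.

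Of the measured repair genes, 10 were listed here as transcribed with S phase. On the R1881-labelled arrays, 4 of the 10 were higher and 0 lower than on vehicle-labelled arrays. On the gedunin arrays, 0 were higher and 5 lower than on R1881-labelled arrays, and 1 higher and 1 lower than on vehicle-labelled arrays. These are 40% and 0%, 0% and 50%, and 10% and 10%. The other 29 repair genes had 11 and 3, 1 and 7, and 6 and 6 (37.9% and 10.3%, 3.45% and 24.1%, and 20.7% and 20.7%). Over all genes the shares were 16.7% and 13.6%, 14.0% and 13.4%, and 15.0% and 11.9%. Falls on the gedunin arrays against the R1881-labelled arrays occurred in both subsets. Among them were BARD1, XRCC2, MSH6, FANCG and TOPBP1 in the first and NBN, XRCC5, FANCF and APEX1 in the second. BRCA1 (0.02), RAD54L (-0.06), BLM (-0.03), EXO1 (-0.08) and CHEK1 (-0.10) of the first were not called there. CHEK1 averaged far under the array medians, and RAD54L, BLM and EXO1 close to them. Against the vehicle-labelled arrays, MSH6, NBN, XRCC5, FANCF and APEX1 were also called lower. BARD1 was called higher there, and XRCC2, FANCG and TOPBP1 were not called. The falls of these last genes against the R1881-labelled arrays were lost without some single arrays, as given above.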

How the data were processed

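RNA of 9 LNCaP samples was hybridised to Affymetrix arrays. Each probe set has an intensity that the authors deposited after RMA, a method named in the submitters' processing notes without a version. RMA sets the arrays to a common distribution, so it hides any shift in RNA content. Between 492 and 960 probe sets had equal values in a pair of arrays. With 3 arrays per group, their number limits precision.

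The deposited intensity was log2-transformed. Of 22277 probe sets, 19064 had 1 symbol in the platform annotation (12 symbols were not in the RefSeq table, 0 were updated), and the brightest stood for its gene. The test was limma 3.58.1 (R 4.3.3) with 1 coefficient per group over all arrays, eBayes without trend (6.38 prior degrees of freedom), two-sided, and Benjamini-Hochberg adjustment over 11963 genes. The fit was tested on simulated data.

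Genes are given on each array where called at 1.5-fold or more with non-overlapping groups; of other repair genes, up to 3 called per list and comparison with the largest change could be named. Members and lists were chosen with earlier results of these data known. Alternatives were the probe set rule, a filter on dim genes, a pseudocount, the spread estimate, the normalization, the samples in the fit, the fold threshold, ties, the replicate block and leaving out each array.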

Additional observations from a re-analysis of the deposited data

How the results depend on the processing

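Counting only calls of at least 1.5-fold leaves 3 of 15 genes higher and 0 of 3 lower for labelled R1881 over labelled vehicle, 0 of 1 higher and 5 of 12 lower for gedunin over labelled R1881, and 1 of 7 higher and 2 of 7 lower for gedunin over labelled vehicle, by construction. Leaving out 1 array at a time gave 10 to 17 higher and 2 to 3 lower in the first comparison, 1 to 1 higher and 8 to 12 lower in the second, and 5 to 7 higher and 5 to 8 lower in the third. Under the other alternatives (mean over probe sets, a filter on dim genes, a pseudocount of 16, an intensity trend, quantile normalization, only the groups compared, no genes with 3 equal values, the replicate block) each count stayed within 1.5 times. Without probe sets that can match other transcripts, chosen after seeing the data, XRCC4 was at -0.076 for gedunin over labelled vehicle and no longer passed, since a different probe set then stands for it; its other 2 probe sets not of that kind were called higher (0.38 and 0.45).

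No label says whether replicate numbers pair the arrays, and correlations between arrays cannot settle it. Deviations from group means correlated with r between -0.11 and 0.13 for same numbers and between -0.15 and 0.17 for other numbers. Under the replicate block RAD50 (0.20, adjusted p = 0.0551) and PARP1 (0.17, adjusted p = 0.0627) lost a call against labelled vehicle, and TOPBP1 (labelled R1881) and OGG1 (gedunin) gained one (0.20 and -0.23, adjusted p = 0.0371 and 0.0454).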
